A study of Mus musculus with 4 samples.

Results

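The 9 genes described here encode enzymes and an accessory protein that make or break down prostaglandins and leukotrienes, the lipid mediators derived from arachidonic acid. They were chosen by name (Ptgs1, Ptgs2, Ptges, Hpgds, Hpgd, Alox5, Alox5ap, Ltc4s and Alox15) and are 9 of the 54115 genes to which reads could be assigned. All 9 were measured by RNA-seq in MC38 tumours. MC38 is a mouse colon adenocarcinoma line, and the tumours grew from injected MC38 cells. Mice of the saline group received saline intraperitoneally once a day for 10 days, and those of the vanoxerine group received vanoxerine, an inhibitor of the dopamine transporter, at 25 mg/kg by the same route and schedule. Each group had 2 libraries, each from a snap-frozen primary tumour that holds cancer cells together with host cells. The sources used here do not give the host's strain, sex or age, or say whether each library is from another animal. The p-values therefore rest on the scatter of these libraries alone, and that scatter may be technical.

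Free arachidonic acid has several fates. The cyclooxygenases encoded by Ptgs1 and Ptgs2 turn it into prostaglandin H, from which terminal synthases make the individual prostaglandins: Ptges the E form and Hpgds the D form. Hpgd encodes the dehydrogenase that inactivates prostaglandins. Alox5, helped by the membrane protein encoded by Alox5ap, starts leukotriene synthesis, and Ltc4s joins the product to glutathione to give the cysteinyl leukotrienes. Alox15 encodes a further lipoxygenase. In colon tumours, prostaglandin E made through Ptgs2 is known as a growth-promoting and immune-modulating signal, while Hpgds and the leukotriene enzymes are typical of mast cells, macrophages and other leukocytes.

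Promoters of 5 of these genes are shown because these are the called genes with an entry in the promoter table: Hpgds, Ptgs1, Ptgs2 and Alox5, which rose, and Ptges, which fell in the main test. The RefSeq table of promoters (GRCm38.p6) matched 7 of the 9 genes, all but Alox5ap and Alox15. Each sequence is the 250 bases before the annotated start, on the gene's own strand, for Hpgds (chr6:65144731-65144980, reverse strand), Ptgs1 (chr2:36230176-36230425, forward strand), Ptgs2 (chr1:150099781-150100030, forward strand), Alox5 (chr6:116461179-116461428, reverse strand) and Ptges (chr2:30903298-30903547, reverse strand). Capitals mark matches to GAGGAAGT, a form of the site of the myeloid factor PU.1, or to GGGCGG, the GC box bound by Sp1.
Hpgds: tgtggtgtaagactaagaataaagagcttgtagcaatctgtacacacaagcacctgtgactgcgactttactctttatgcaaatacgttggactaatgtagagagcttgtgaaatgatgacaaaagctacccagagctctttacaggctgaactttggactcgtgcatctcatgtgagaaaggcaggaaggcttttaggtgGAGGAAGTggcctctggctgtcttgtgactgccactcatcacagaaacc
Ptgs1: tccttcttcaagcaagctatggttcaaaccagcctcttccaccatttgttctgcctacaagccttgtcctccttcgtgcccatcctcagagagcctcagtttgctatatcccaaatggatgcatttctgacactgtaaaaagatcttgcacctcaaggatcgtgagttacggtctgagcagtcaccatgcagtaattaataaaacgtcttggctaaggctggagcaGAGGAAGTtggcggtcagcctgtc
Ptgs2: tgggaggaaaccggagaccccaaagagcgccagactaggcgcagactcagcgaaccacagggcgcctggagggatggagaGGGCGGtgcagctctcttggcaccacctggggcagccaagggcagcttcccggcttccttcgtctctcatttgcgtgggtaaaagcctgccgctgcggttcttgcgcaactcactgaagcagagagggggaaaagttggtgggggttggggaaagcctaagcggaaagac
Alox5: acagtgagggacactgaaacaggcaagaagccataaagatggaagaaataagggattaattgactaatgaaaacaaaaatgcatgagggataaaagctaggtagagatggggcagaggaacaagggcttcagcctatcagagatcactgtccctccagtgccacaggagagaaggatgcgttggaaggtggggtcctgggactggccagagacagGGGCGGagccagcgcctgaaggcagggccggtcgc
Ptges: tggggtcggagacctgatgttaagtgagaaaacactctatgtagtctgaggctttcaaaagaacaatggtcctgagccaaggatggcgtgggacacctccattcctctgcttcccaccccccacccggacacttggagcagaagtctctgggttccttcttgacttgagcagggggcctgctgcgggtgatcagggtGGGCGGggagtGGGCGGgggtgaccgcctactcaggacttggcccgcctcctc
These starts are RefSeq's, and the gene positions given below put some starts elsewhere. By those positions the Hpgds gene reaches 65144908, so part of its window, with the GAGGAAGT match, lies inside the gene. The Ptges window lies wholly inside its gene (30889471 to 30929863). Hpgds and Ptgs1 held GAGGAAGT, its first letter 49 and 24 bases before the RefSeq start. None of the other 5 matched promoters held it on either strand. Of the 32851 promoter windows of this length in the table, 2.44% held it. The GC box was found in Ptges, at 53 and 42 bases before the start, in Alox5 at 35, in Ptgs2 at 170 and, on the opposite strand, in Hpgd at 50, and it was in 32.7% of all windows. TATAAA, searched on both strands as well, was in 12.4% of all windows and in 0 of the 7. These motifs were picked with the sequences in view, no matches overlapped each other, and a match is a description of letters, not evidence of binding.

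The libraries held 67289273 to 75748162 estimated reads. In the comparison of vanoxerine with saline, edgeR's quasi-likelihood test called 6916 of 18758 genes (36.9%) at an adjusted p under 0.05, 21.0% higher and 15.9% lower in vanoxerine. The labelled colon adenocarcinoma had low levels of Epcam and keratin genes, but not of every epithelial marker. Epcam stood at 1.75 and 2.29 CPM (reads relative to the library's total, scaled by TMM factors) in saline and at 4.22 and 4.01 CPM in vanoxerine, and Krt8 at 0.838 and 1.70 CPM and at 1.59 and 1.78 CPM. Krt18, Krt19 and Krt7 were at 2.17 CPM or below in every library. Cdh1 was higher than these, at 11.3 and 13.5 CPM in saline and 25.4 and 27.6 CPM in vanoxerine. In bulk tumours, fewer cells of a type and less RNA per cell cannot be told apart.

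Hpgds, the haematopoietic prostaglandin D synthase gene, showed by far the largest change of the 9 in the main test. Its level was 7.71-fold higher in vanoxerine tumours. Both genes of the first leukotriene step rose, Alox5ap 2.0-fold and Alox5 1.66-fold, and both cyclooxygenase genes rose by less, Ptgs1 1.49-fold and Ptgs2 1.24-fold. Ptges, the inducible prostaglandin E synthase gene, was 1.25-fold lower when whole reads were compared. Its direction, summed over transcripts, turned when transcript length was taken into account, but its coding transcript alone stayed lower. Hpgd, Ltc4s and Alox15 were not called. All 9 genes passed the low-count filter: 5 were called higher and 1 lower, beside 36.9% of all genes called. The median log2 fold change of the 9 was 0.73, against -0.01 for all genes tested. The groups did not overlap in CPM for 8 of the 9, as for 70.7% of all genes tested. Among all 9, vanoxerine was higher without overlap in 7, against 35.8% of all genes tested, and lower in 1, against 34.9%. Of the 13261 genes tested whose groups did not overlap, 6720 were higher in vanoxerine and 6541 lower.

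**Figure D1:**
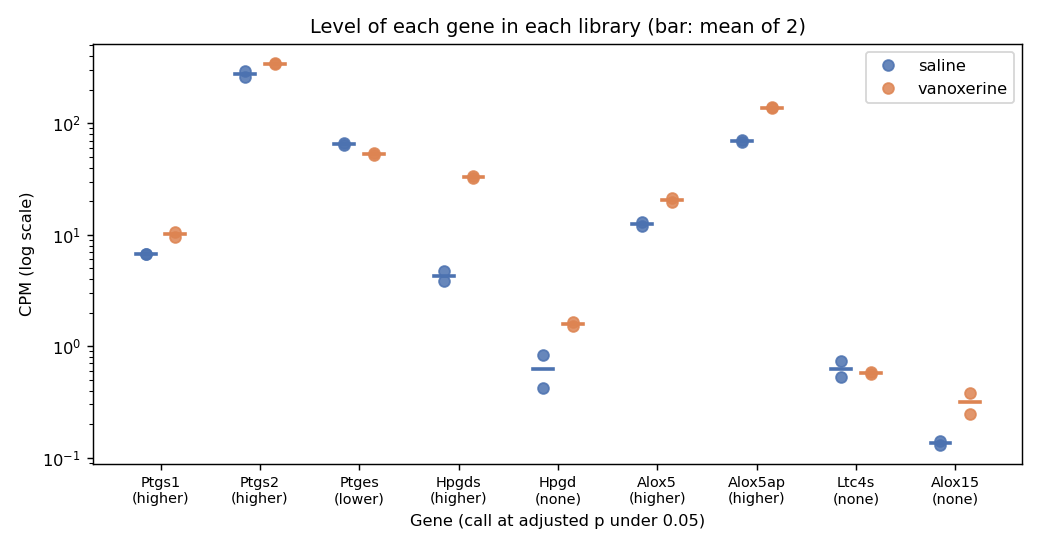
Level of each of the 9 genes in each library in CPM on a log axis, saline in blue and vanoxerine in orange, with a bar at the mean of the 2 libraries and the call under each name. Hpgds shows the widest gap, from 3.85 and 4.69 CPM to 33.5 and 32.3 CPM, and Ltc4s is the gene whose groups overlap.

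The cyclooxygenase genes come first in the pathway. Ptgs2, the inducible form (chromosome 1, 150100031 to 150108227, forward strand, GRCm38), stood at 292 and 260.5 CPM in saline and at 347 and 338 CPM in vanoxerine. Both vanoxerine libraries lay above both saline libraries, and the saline libraries differed from each other more than the vanoxerine libraries did. The means were 276 ± 22.5 and 342 ± 6.29 CPM (SD, n = 2), a log2 fold change of 0.31 ± 0.063 (SE; edgeR adjusted p = 0.0126). The call was lost with upper-quartile scaling (0.17, adjusted p = 0.0624), which moved the median of all genes to -0.14, so that Ptgs2 stood 0.32 above that median. It was also lost without vanoxerine replicate 1 (adjusted p = 0.0939) or 2 (adjusted p = 0.0655).

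Ptgs1, the constitutive form (chromosome 2, 36230426 to 36252272, forward strand), was far less abundant. Its levels were 6.67 and 6.78 CPM in saline and 9.52 and 10.6 CPM in vanoxerine. The groups did not overlap, and the log2 fold change was 0.58 ± 0.13 (edgeR adjusted p = 0.0153). The reads behind it were divided unevenly among transcripts. In saline replicate 1 Salmon gave 108 of 510 reads (21.2%) to the coding transcript Ptgs1-201 and 73.3% to Ptgs1-204, a non-coding transcript of nearly the same length, whereas in saline replicate 2 the coding transcript took all 483 reads. The coding transcript held 80.9% and 97.8% of the reads in vanoxerine. Counted over protein-coding transcripts alone, the log2 fold change was 1.09 (adjusted p = 0.268). The call was also lost with an average transcript length offset (adjusted p = 0.124), with log2(TPM + 1) (adjusted p = 0.0739) and without vanoxerine replicate 1 (adjusted p = 0.0710) or 2 (adjusted p = 0.154).

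Ptges encodes the inducible, membrane-bound prostaglandin E synthase that works downstream of Ptgs2 (chromosome 2, 30889471 to 30929863, reverse strand). Its levels were 64.1 and 67.2 CPM in saline and 53.7 and 51.5 CPM in vanoxerine, lower in both vanoxerine libraries. The log2 fold change was -0.32 ± 0.056 (edgeR adjusted p = 0.00672). Over protein-coding transcripts alone it was -0.46 (edgeR adjusted p = 0.00435). On the TPM scale (reads relative to transcript length and library total) the order was the opposite, with 23.4 and 25.1 TPM in saline and 28.5 and 34.1 TPM in vanoxerine summed over its transcripts. The coding transcript Ptges-202 alone was lower in vanoxerine on this scale too, at 13.2 and 13.3 TPM in saline and 12.2 and 11.6 TPM in vanoxerine. The rest came from short non-coding transcripts: Ptges-201, of 703 bases, was at 10.2 and 10.3 TPM in saline and 14.9 and 8.87 TPM in vanoxerine. Ptges-203, of 446 bases, was at 0 except for 11.9 TPM in vanoxerine replicate 2, where it held 5.09% of the reads. With the length offset the log2 fold change of Ptges was 0.13 (adjusted p = 0.489) and with log2(TPM + 1) 0.35 (adjusted p = 0.0960), 0.22 above the median of all genes on that scale. Without vanoxerine replicate 1 (-0.34, adjusted p = 0.0720) or 2 (-0.28, adjusted p = 0.145) the call was lost as well.

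Hpgds (chromosome 6, 65117293 to 65144908, reverse strand), whose RefSeq promoter window with GAGGAAGT is printed above, makes prostaglandin D in cells of blood origin. It had 294 and 334 reads in saline and 2320 and 2127 reads in vanoxerine, or 3.85 and 4.69 CPM against 33.5 and 32.3 CPM. The lowest vanoxerine library was thus well clear of the highest saline library. The log2 fold change was 2.95 ± 0.12 (edgeR adjusted p = 3.91e-05), and 194 of the 18758 genes tested (1.03%) had a larger one. Hpgds was called under all 15 alternatives run. Its size was smaller where length entered: the length offset gave 2.21 (adjusted p = 0.0150), and log2(TPM + 1) gave 2.17 (adjusted p = 0.0154). The coding transcript Hpgds-201 itself went from 0.761 and 0.865 TPM to 8.72 and 8.14 TPM, a ratio of means of 10.4. The 420-base transcript Hpgds-202, annotated with a retained intron, was at 1.24 and 3.21 TPM in saline and 6.44 and 9.13 TPM in vanoxerine, from 20.5 to 111 reads per library. It therefore weighed on the TPM sum far beyond its share of the reads, which was 3.52% to 15.2%.

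Over the 4 libraries, the 3 genes whose pattern lay closest to that of Hpgds, by distance between mean-centred log2 CPM among 12581 other genes, were Npl (distance 0.0711), Mmp19 (0.111) and Itga9 (0.120). Npl, a sialic acid lyase gene, was measured at 0.890 and 1.09 CPM in saline and at 7.97 and 8.11 CPM in vanoxerine. With 4 libraries this likeness reflects mostly the gap between the groups.

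Hpgd, the gene of the dehydrogenase that inactivates prostaglandins (chromosome 8, 56294585 to 56321043, forward strand), was rare. It had 63 and 30 reads in saline and 114 and 100 reads in vanoxerine, or 0.825 and 0.421 CPM against 1.65 and 1.52 CPM. Vanoxerine libraries were the higher ones, and the saline libraries differed from each other far more than the vanoxerine libraries did. The log2 fold change of 1.34 ± 0.44 did not pass the test (edgeR adjusted p = 0.0578). It did pass in 5 of 15 alternatives: with limma-voom (adjusted p = 0.0424), a mean CPM of at least 1 (adjusted p = 0.0395), log2(TPM + 1) (adjusted p = 0.0305) and without saline replicate 1 (1.90, adjusted p = 5.81e-04) or 2 (0.95, adjusted p = 0.0342).

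**Figure D2:**
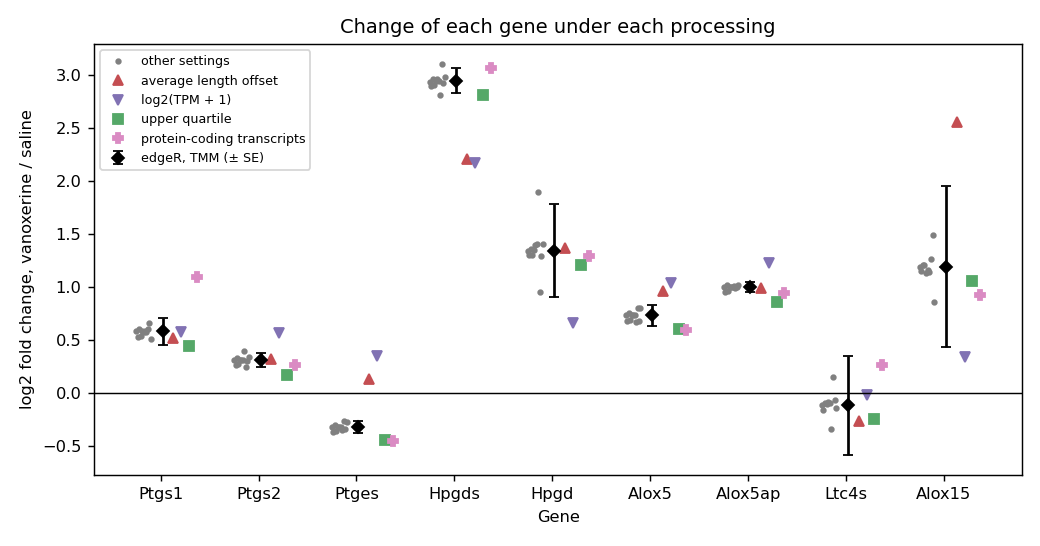
Log2 fold change of each gene under each processing, the main edgeR value as a black diamond with its SE and grey points for the settings not named in the key. Ptges is the called gene that crosses 0 (0.13 under the length offset, 0.35 under log2(TPM + 1)), while Hpgds stays between 2.17 and 3.11.

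In the leukotriene arm, Alox5 encodes the lipoxygenase that forms leukotriene A (chromosome 6, 116410077 to 116461178, reverse strand). Its levels were 11.9 and 13 CPM in saline and 21.5 and 19.8 CPM in vanoxerine. The groups did not overlap, with a log2 fold change of 0.73 ± 0.097 (edgeR adjusted p = 0.00244). Alox5ap, whose product FLAP presents arachidonic acid to that enzyme (chromosome 5, 149264767 to 149288153, forward strand), was at 70.1 and 68.5 CPM in saline and at 139 and 138 CPM in vanoxerine. Replicates lay close together in both groups, and the log2 fold change was 1.0 ± 0.047 (edgeR adjusted p = 5.80e-05). Both genes were called higher under all 15 alternatives run (adjusted p up to 0.0309 and 0.0057), at 0.59 to 1.04 for Alox5 and 0.86 to 1.23 for Alox5ap.

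The main coding transcripts of both genes were also higher in vanoxerine per length. Alox5-201 was at 3.0 and 3.24 TPM in saline and 6.38 and 5.19 TPM in vanoxerine, and Alox5ap-201 at 35.5 and 32.0 TPM and at 78.5 and 73.7 TPM. Of the reads of Alox5ap, 59.5% to 65.6% went to Alox5ap-201 in each library and 22.2% to 24.6% to the non-coding transcript Alox5ap-204. Within each library the ratio of Alox5-201 to Alox5ap-201 in TPM was 0.0846 and 0.101 in the saline libraries, against 0.0813 and 0.0704 in the vanoxerine libraries, so both vanoxerine values were the lower ones.

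Ltc4s, the leukotriene C synthase gene (chromosome 11, 50236461 to 50238616, reverse strand), had 40 and 52 reads in saline and 39 and 39 reads in vanoxerine. These were 0.524 and 0.730 CPM against 0.563 and 0.592 CPM, and the groups overlapped. The log2 fold change was -0.12 ± 0.47 (edgeR adjusted p = 0.877), an SE wider than the 0.097 of Alox5. What size of change could be detected at this depth was not tested. In saline replicate 1 all 40 reads were placed on the non-coding transcript Ltc4s-204, and in saline replicate 2 all 52 on the coding transcript Ltc4s-202. The antisense gene Gm26542, which overlaps part of Ltc4s, had 1, 27, 5 and 2 reads in saline replicates 1 and 2 and vanoxerine replicates 1 and 2. The library kit named in the labels does not mark strand, so reads of this pair cannot be told apart where they overlap.

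Alox15, the gene of a lipoxygenase of eosinophils and resident macrophages (chromosome 11, 70344152 to 70352031, reverse strand), was the rarest of the 9. It had 10 reads in each saline library and 17 and 25 reads in vanoxerine, or 0.131 and 0.140 CPM against 0.246 and 0.380 CPM. The vanoxerine libraries were higher, but the log2 fold change of 1.19 ± 0.76 did not pass the test (edgeR adjusted p = 0.278). It passed under none of the 14 alternatives that gave it a value. These values ran from 0.34 with log2(TPM + 1) to 2.56 with the length offset, where Hpgds was at 2.21. In vanoxerine replicate 2, 25.4% of its reads were placed on the 432-base non-coding transcript Alox15-202, which put the gene at 0.595 TPM there and 0.103 TPM in vanoxerine replicate 1.

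**Figure D3:**
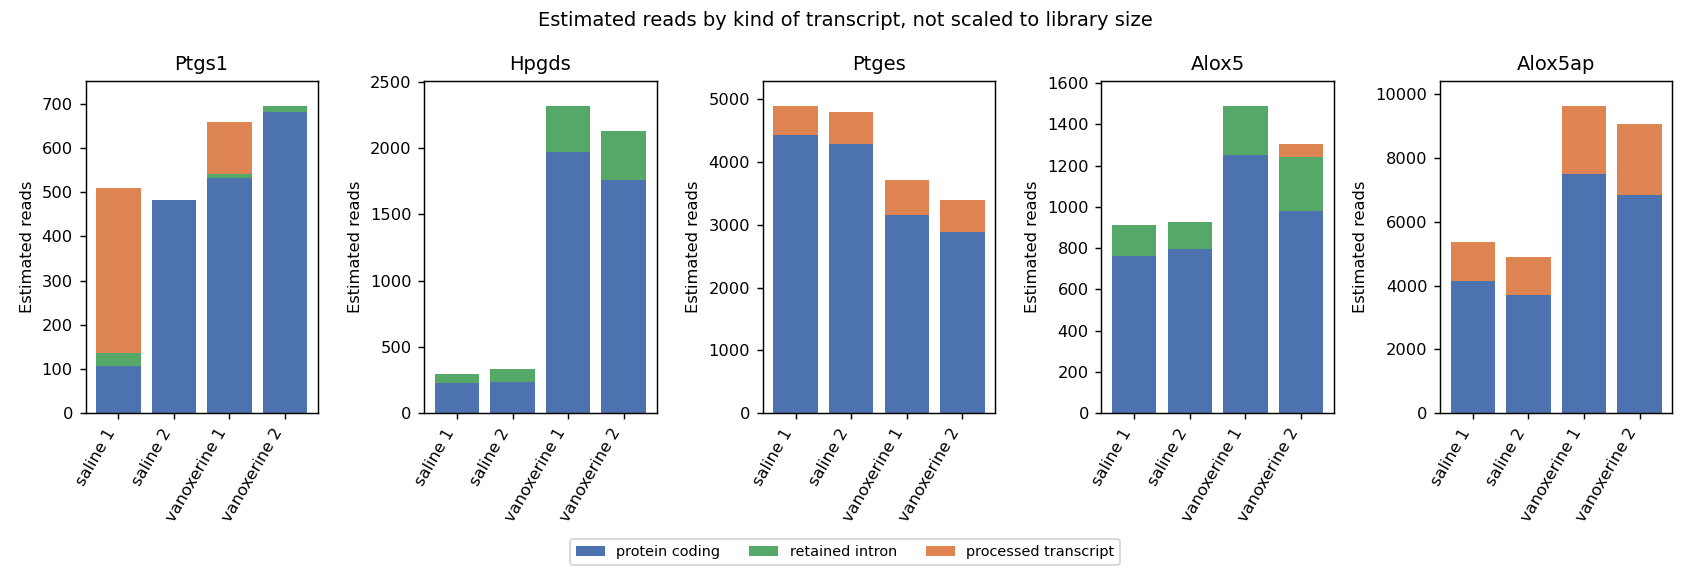
Estimated reads in each library, not scaled to library size, stacked by kind of transcript for Ptgs1, Hpgds, Ptges, Alox5 and Alox5ap. Saline replicate 1 stands apart for Ptgs1, with 108 reads on protein-coding transcripts against 483 in saline replicate 2, while the coding share of Hpgds is the largest in all 4 libraries.

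The 3 highest genes per length were in the same order in every library. Summed over transcripts, Alox5ap was highest (146 and 125 TPM in saline, 318 and 317 TPM in vanoxerine), followed by Ptgs2 (65.1 and 59.4 TPM, then 93.0 and 90.9 TPM) and Ptges. Hpgds was at 2.14 and 4.21 TPM in saline, where it did not differ from Ptgs1 beyond the spread of the libraries, and at 16.2 and 18.3 TPM in vanoxerine, above both. Ltc4s (1.11 to 1.28 TPM), Hpgd and Alox15 took the last places in every library, and Hpgd and Ltc4s changed places between the vanoxerine libraries. Between main coding transcripts, Ptgs2-201 stood above Alox5ap-201 in every library, and transcripts of 356 to 504 bases held the rest of the TPM of Alox5ap.

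Ratios within a library do not depend on scaling between libraries. The ratio of Hpgds-201 to Ptges-202, the coding transcripts of the prostaglandin D and E synthases, was 0.0574 and 0.0651 in the saline libraries and reached 0.715 and 0.701 in the vanoxerine libraries. The D synthase transcript was thus far below the E synthase transcript in saline and approached it in vanoxerine. The ratio of Alox5ap-201 to Ptgs2-201 was 0.545 and 0.538 in the saline libraries, against 0.844 and 0.811 in the vanoxerine libraries. These ratios are descriptions. With 2 libraries a group, the smallest two-sided exact permutation p for a value of this kind is 0.33.

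The steps around the 9 genes were read from 7 lists with 57 genes in all. Of the 51 tested, 18 rose, 8 fell and 25 did not pass the test, beside 36.9% of all genes called, and the median log2 fold change was 0.07. The other prostanoid synthases held the largest rise. Tbxas1, the thromboxane synthase gene, stood at 4.66 and 4.49 CPM in saline and at 59.9 and 57.0 CPM in vanoxerine. It was 12.8-fold higher, with a log2 fold change of 3.68 ± 0.078 (edgeR adjusted p = 6.85e-06), and only 111 genes tested had a larger one. Fam213b, which encodes a prostaglandin F synthase, was at 1.22 and 2.02 CPM in saline and 9.07 and 8.91 CPM in vanoxerine (2.47 ± 0.26). Ptgis, the prostacyclin synthase gene, fell from 8.59 ± 0.990 to 5.54 ± 0.664 CPM (-0.63 ± 0.16, edgeR adjusted p = 0.0275), a call lost with the length offset (adjusted p = 0.0857), with log2(TPM + 1) (adjusted p = 0.234) and without vanoxerine replicate 1 (adjusted p = 0.0810) or 2 (adjusted p = 0.201). The other 5 of these 8 genes were not called, and the list's median was -0.02.

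**Figure D4:**
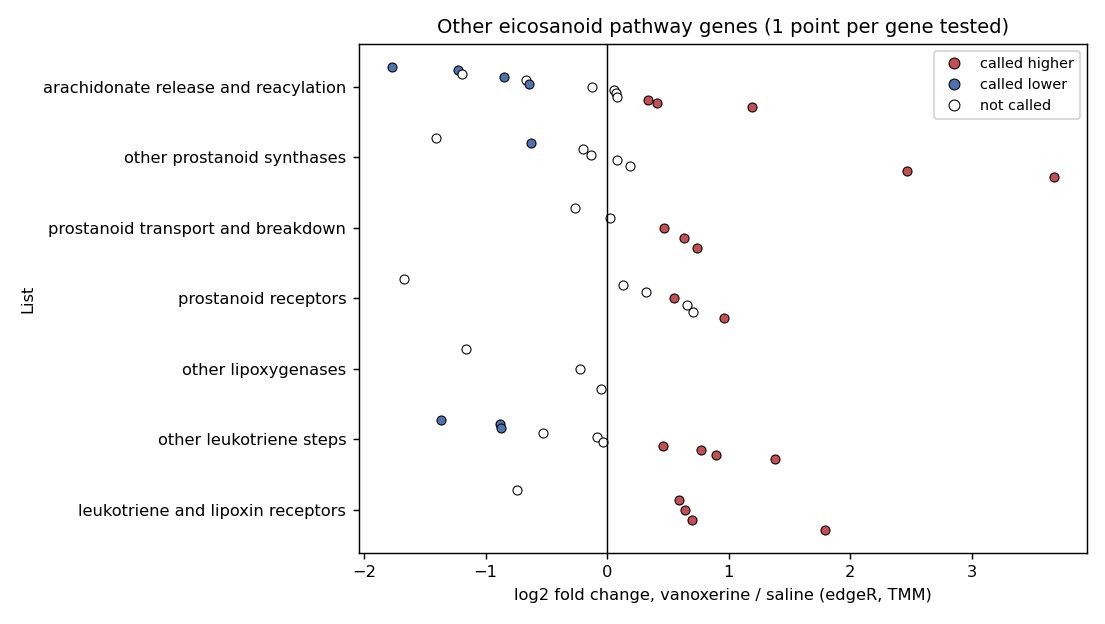
Log2 fold change of each tested gene in the 7 lists of other pathway steps, filled red where called higher, blue where called lower and white where not called. Tbxas1, at 3.68, and Fam213b, at 2.47, lie to the right of all others, and in the receptor lists 6 genes are called higher, with Ptgfr, at -1.67, not called.

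Upstream, genes that release arachidonic acid from membranes or return it to them went both ways: 3 of 13 tested rose and 4 fell, with a median of -0.12. Over all genes tested, 21.0% were called higher and 15.9% lower. Daglb, a diacylglycerol lipase gene, stood at 19.6 and 20.4 CPM in saline and at 45.2 and 46.1 CPM in vanoxerine (1.19 ± 0.066). The 4 genes that fell were 3 of secreted phospholipases and Mgll, the monoglyceride lipase gene. Pla2g12a went from 69.8 ± 0.741 to 38.6 ± 0.476 CPM (-0.85 ± 0.052), and Pla2g2e from 8.22 ± 1.07 to 2.42 ± 0.336 CPM (-1.77 ± 0.19). Pla2g5 fell by 0.64 on the log2 scale, a call lost with the length offset (-0.32, adjusted p = 0.0849) and with log2(TPM + 1) (-0.07, adjusted p = 0.513). Mgll fell by 1.23, a call lost with log2(TPM + 1) (adjusted p = 0.0586) and without vanoxerine replicate 1 (adjusted p = 0.0737) or 2 (adjusted p = 0.0709). The rise of Acsl4, which activates arachidonic acid for return to membranes (0.41 ± 0.086), was not kept with the length offset (-0.02, adjusted p = 0.896), with log2(TPM + 1) (adjusted p = 0.0943) or without vanoxerine replicate 1 (adjusted p = 0.0796) or 2 (adjusted p = 0.0616). Pla2g4a, the cytosolic phospholipase that feeds both arms, stood at 37.6 and 34.1 CPM in saline and at 43.8 and 47.2 CPM in vanoxerine (0.34 ± 0.077, edgeR adjusted p = 0.0170). Its call was lost with upper-quartile scaling (adjusted p = 0.0676), with the length offset (adjusted p = 0.0523) and without vanoxerine replicate 1 (adjusted p = 0.0667) or 2 (adjusted p = 0.161).

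Later leukotriene steps also divided, with 4 of 10 genes higher, 3 lower and a median of -0.06, beside 21.0% of all genes called higher and 15.9% lower. Cotl1, whose product binds 5-lipoxygenase as well as actin, went from 169.5 ± 3.69 to 442 ± 0.823 CPM (1.38 ± 0.042). Dpep2, a leukotriene D dipeptidase gene, rose by 0.90 ± 0.077 and the leukotriene C exporter gene Abcc1 by 0.46 ± 0.048. Cyp4f18, a leukotriene B hydroxylase gene, rose by 0.77 ± 0.049, a call lost with the length offset (0.37, adjusted p = 0.0640). The 3 lower genes, named after their values were seen, were Ggt1 (-1.37 ± 0.17), Ggt5 (-0.87 ± 0.15) and Mgst2 (-0.88 ± 0.15), enzymes that handle glutathione conjugates. The calls of Ggt5 and Mgst2 were lost without vanoxerine replicate 1 (adjusted p = 0.0666 and 0.0688), and that of Ggt5 also over protein-coding transcripts alone (adjusted p = 0.753). Lta4h, which makes leukotriene B, had a mean of 117 ± 5.36 CPM in the saline libraries and 115 ± 1.12 CPM in the vanoxerine libraries (edgeR adjusted p = 0.688).

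In the main test 6 receptor genes rose and 0 fell, beside 21.0% of all genes called higher and 15.9% lower. Of the leukotriene and lipoxin receptors 4 of 5 tested rose, with a median of 0.64. Cysltr1, a cysteinyl leukotriene receptor gene, stood at 6.31 and 3.59 CPM in saline and at 16.6 and 17.7 CPM in vanoxerine (1.79 ± 0.26), and Fpr2 rose by 0.70 ± 0.098. Ltb4r1 (0.64 ± 0.12) and Cysltr2 (0.59 ± 0.14) rose too, and both calls were lost without vanoxerine replicate 1 (adjusted p = 0.0873 and 0.0695) or 2 (adjusted p = 0.0518 and 0.120), and that of Cysltr2 with the length offset (adjusted p = 0.117). Of the prostanoid receptors 2 of 7 tested rose, the prostaglandin E receptor genes Ptger2, from 4.98 ± 0.750 to 9.68 ± 0.194 CPM, and Ptger4, from 14.0 ± 0.871 to 20.4 ± 0.611 CPM, the latter not called without vanoxerine replicate 2 (adjusted p = 0.0724). The prostaglandin F receptor gene Ptgfr, named after its values were seen, stood at 0.995 and 0.968 CPM in saline and at 0.433 and 0.182 CPM in vanoxerine, lower in both vanoxerine libraries, but was not called (-1.67 ± 0.57, edgeR adjusted p = 0.0664). It was called lower with upper-quartile factors (-1.80, adjusted p = 0.0483), over protein-coding transcripts alone (-2.06, adjusted p = 0.0440) and without saline replicate 1 (-1.65, adjusted p = 0.0296) or 2 (-1.67, adjusted p = 0.0236). Its direction turned under the length offset (3.37, adjusted p = 0.285) and under log2(TPM + 1) (0.95, adjusted p = 0.430). The prostaglandin D receptor gene Ptgdr had 0 reads in every library, which allows up to 0.0398 to 0.0448 CPM by counting error (3 reads), and Ptgdr2 had 3 reads in all. Of the prostanoid transport and breakdown genes 3 of 5 rose, Ptgr1 (0.74 ± 0.088), Zadh2 (0.47 ± 0.075) and Ptgr2 (0.63 ± 0.13). The last 2 calls were lost without vanoxerine replicate 1 (adjusted p = 0.0693 for Zadh2 and 0.0796 for Ptgr2), and that of Zadh2 without vanoxerine replicate 2 (adjusted p = 0.0633). Of the 3 other lipoxygenase genes tested, 0 were called by edgeR, DESeq2 or limma-voom, and 1, Alox8, also named after its values were seen, was under 0.05 before adjustment in edgeR (-1.16, adjusted p = 0.0861). Without saline replicate 1, Alox8 was called lower (-1.57, adjusted p = 6.91e-04), and without saline replicate 2 it was not (-0.58, adjusted p = 0.281).

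Markers of leukocytes that carry these enzymes moved in the same libraries, where 21.0% of all genes tested were called higher and 15.9% lower. All 10 macrophage markers rose, and their summed level was 1093 and 1137 CPM in saline and 4961 and 4964 CPM in vanoxerine. Their median log2 fold change was 2.50, against 2.95 for Hpgds, 1.0 for Alox5ap, 0.73 for Alox5 and 0.58 for Ptgs1. Mast cell markers rose in 8 of 10 genes, with a median of 2.88. Their sum, 177 to 196 CPM in saline and 264 to 270.2 CPM in vanoxerine, was mostly Hdc, which was not called (149 and 168 CPM, then 154 and 149 CPM). The mast cell protease genes Cpa3 (1.3 and 0.800 CPM, then 13.6 and 14.8 CPM) and Mcpt4 (1.40 and 2.60 CPM, then 17.1 and 16.8 CPM) were low in saline and higher in vanoxerine. Dendritic cell markers rose in 5 of 7 genes (43.5 to 50.1 CPM in sum, then 105 to 106 CPM). The part of these cells in the rises of Hpgds, Alox5ap, Alox5 and Ptgs1 was not tested.

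Other lists moved differently, again beside 21.0% of all genes called higher and 15.9% lower. Neutrophils also express Alox5 and Alox5ap, and their markers fell in 6 of 10 genes and rose in 0, from 912 and 953 CPM in sum to 539.9 and 535 CPM. Beside Ptgs1, which platelets express, 1 of 8 platelet markers was called, Pf4, at 33.7 and 33.0 CPM in saline and 112 and 108 CPM in vanoxerine, a gene that macrophages also express. The platelet list summed to 45.3 and 45.3 CPM and to 126 and 122 CPM. Beside Alox15, 0 of 4 tested eosinophil markers were called by edgeR and 0 were under 0.05 before adjustment. Their median log2 fold change was -0.55. The list summed to 0.785 and 1.92 CPM in saline and to 2.6 and 3.07 CPM in vanoxerine. Ccr3 was higher in both vanoxerine libraries (0 and 0.604 CPM, then 1.72 and 2.54 CPM) but not called (edgeR adjusted p = 0.147). The defining gene Epx had reads in 1 saline and 1 vanoxerine library only. Peritoneal macrophage markers rose in 3 and fell in 2 of 6 tested, and their defining gene Gata6 was at 0.196 CPM or below. They summed to 20.7 to 25.1 CPM in saline and 26.3 to 27.2 CPM in vanoxerine. Within that sum Marco rose (0.131 and 0.112 CPM, then 10.8 and 9.64 CPM). Prg4 (8.82 and 7.59 CPM, then 1.44 and 1.7 CPM) and F5 (14.1 and 11.4 CPM, then 6.76 and 8.49 CPM) fell. Basophil markers rose in 1 of 2 tested (9.75 to 12.9 CPM in sum, then 14.5 to 15.9 CPM). Beside Ptges and Ptgs2, fibroblast markers fell in 7 of 9 and rose in 2 (722 and 735 CPM, then 581 and 584 CPM), 5 of 8 endothelial markers fell and 1 rose (151 to 153 CPM, then 145 to 148 CPM), and epithelial markers rose in 3 of 7 and fell in 1 (17.9 to 21.2 CPM, then 36.0 to 38.4 CPM). No marker in these lists was without reads in all 4 libraries, and the part of any of these cells in the changes of the 9 genes was not tested.

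**Figure D5:**
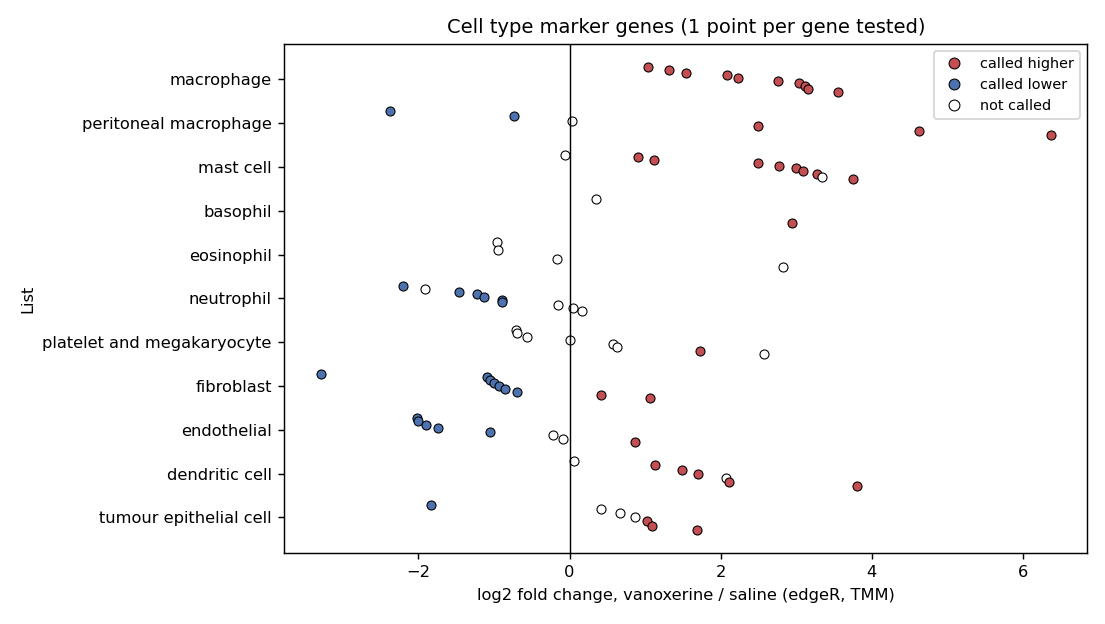
Log2 fold change of each tested marker gene by cell type, filled red where called higher, blue where called lower and white where not called. All 10 macrophage markers lie above 1, 7 of 10 mast cell markers lie between 2.50 and 3.75, and neutrophil, fibroblast and endothelial markers lie mostly below 0.

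Of the 9 genes, 4 had an adjusted p under 0.05 in the authors' deposited table of the comparison. That table gives a log2 fold change of 2.12 ± 0.34 (SE) for Hpgds (adjusted p = 5.64e-10), 0.98 ± 0.11 for Alox5ap (adjusted p = 9.69e-20), 0.90 ± 0.21 for Alox5 (adjusted p = 1.42e-05) and 0.32 ± 0.077 for Ptgs2 (adjusted p = 1.22e-04). In the authors' deposited table Ptgs1 was at 0.43 (adjusted p = 0.0892), Hpgd at 0.77 (adjusted p = 0.0688) and Alox15 at 0.30 (adjusted p = 0.0929). Ptges was at 0.12 (adjusted p = 0.502) and Ltc4s at -0.07 (adjusted p = 0.817) in the authors' deposited table. For Ptges and Hpgds its values lay nearer to those with the length offset (0.13 and 2.21) than to those of the whole-read counts (-0.32 and 2.95). Alox15, at 0.30 ± 0.58 (SE), and Hpgd, at 0.77 ± 0.69, had p-values under 0.05 there before adjustment, smaller than those ratios give. Whether the deposited fold changes were shrunken toward 0 is not given in these sources, so their sizes may not compare directly with those above. The per-library columns of that table carry names that match none of these 4 libraries, so the libraries behind it are uncertain.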

How the data were processed

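RNA-seq libraries of 2 saline and 2 vanoxerine MC38 tumours were compared. Per the submitters' processing notes the authors used fastp, Salmon 1.3.0, DESeq2 and GRCm38. The annotation release and Salmon's settings were not given in these sources. Per the file headers, each library's file holds Salmon's estimated counts, TPM values, and transcript and effective lengths. The authors' deposited comparison gives a base mean (a signal over libraries), a log2 fold change with its SE, and p-values before and after adjustment. Its 4 per-library columns match no sample and were not used.

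Transcripts were assigned to genes with GENCODE M21 (139791 of 140992 matched, 99.56% to 99.63% of reads). Estimated counts were summed per gene and rounded. A symbol with several gene IDs took the one with most reads. edgeR 4.0.16 (R 4.3.3) was used with TMM factors, a low-count filter (filterByExpr, at least 10 reads, 15 in total) and quasi-likelihood tests, adjusted by Benjamini-Hochberg over 18758 genes at 0.05. It was tested on simulated data. SEs come from the F statistic. Values are CPM, mean ± SD over 2 libraries. Intervals and floors cover counting error only, and Salmon's division of reads among transcripts adds error that the depth does not show.

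The members and lists were chosen with earlier results of these data known. Named genes are the 9 members, up to 4 called genes with the smallest p per pathway list, genes whose call an alternative ended, up to 4 markers per cell type and the 3 genes nearest to the most changed member. Alternatives were other scalings, filters, an adjusted p under 0.1, DESeq2 1.42.0, limma 3.58.1 (voom, and trend on log2(TPM + 1)), a length offset, protein-coding transcripts, a replicate block and leaving out each library, which assumes that a lone library varies as the other group does.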

Additional observations from a re-analysis of the deposited data

How the results depend on the processing

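Over the alternatives run, Hpgds, Alox5ap and Alox5 kept their call and direction in 15 of 15 settings. Ptgs2 lost its call in 3, Ptgs1 in 5 and Ptges in 2, with its direction turned in 2 more: 0.13 with the average transcript length offset and 0.35 with log2(TPM + 1). Ltc4s, never called, was at 0.26 over protein-coding transcripts, which held 0 of its reads in saline replicate 1 and 52 in saline replicate 2. It lay between -0.34 and 0.15 when 1 library was left out. The cause was not tested. Of the 9 genes, the number called was 4 to 7 with all libraries, and 3 to 7 when 1 library was left out: 3 without either vanoxerine library and 7 without either saline library. Other pathway genes called numbered 26 in the main test and 16 to 34 when 1 library was left out. All genes called numbered 6916, 4309 with the length offset, and 3107 to 9708 when 1 library was left out. The share of calls that were higher was 56.9%, 39.0% with upper-quartile factors, and 82.5% with log2(TPM + 1), where all 5 members called were higher. Among other pathway genes it was 69.2%, 63.0% and 78.3%. The median of all genes lay at -0.01, at -0.14 with upper-quartile factors and at 0.13 with log2(TPM + 1). Same-numbered libraries did not deviate together (correlation 0.01). With 2 libraries a group this value shows no sign of pairing but cannot exclude one. With the replicate block 6391 genes, 6 members and 26 other pathway genes were called. Hpgd, Ltc4s and Alox15 had 10 to 114 reads per library, and the part of depth in their missing calls was not tested.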
